A study of Mus musculus with 8 samples.

Results

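Glycolysis and hypoxia response genes were followed in primary mammary tumours with and without suppression of miR-21 in the tumour cells. The members were 39 mouse genes, listed by name, of the 27179 genes in the count table. All 39 were listed and passed the filter on low counts, and the lowest count of any member in a tumour was 11. They comprised 24 genes of glucose uptake, glycolysis and lactate handling, and 15 genes of oxygen sensing and its targets.

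Whole tumours grew from 4T1.13 cells, a metastatic murine mammary carcinoma line, placed in a mammary fat pad of mice of the BALB/c strain. The labels give 100000 injected cells, and the growth curve that the study cites for these tumours gives a larger number. According to the methods of the study, the mice were female and 7 to 8 weeks old at injection. RNA sequencing was performed on 4 vector control tumours (4T1.13-VC, called VC here) and 4 miR-21 knockdown tumours (4T1.13-miR-21-KD, called miR-21-KD). Both lines carried the lentiviral miArrest vector pEZX-AM03 with mCherry and hygromycin resistance. In miR-21-KD cells the H1 promoter of the vector drove an RNA that binds and sequesters the mature strand, and in VC cells the vector expressed a scrambled RNA. Each line was a pool of 6 clones, and the host cells carried no vector and kept their own miR-21. The labels place recovery of the tumours at day 14 and the text of the study at day 12, at the time when miR-21-KD tumours had started to shrink. The read counts hold no measure of mature miR-21, so the knockdown could not be checked here.

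Glycolysis splits glucose into pyruvate in the cytosol, and cells that lack oxygen, or many tumour cells whatever the supply, turn that pyruvate into lactate and export it. When oxygen is scarce, prolyl hydroxylases of the Egln family no longer mark the HIF alpha subunits Hif1a and Epas1 for destruction. HIF then binds a short DNA element with the core letters ACGTG or GCGTG near its target genes, which include most glycolytic enzymes, Car9, Adm, Bnip3 and Ndrg1. Solid tumours commonly show this programme in poorly perfused areas. MiR-21 acts on messenger RNAs whose 3′ UTR pairs with its seed, bases 2 to 8 of the mature strand.

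The mature strand that the vector sequesters is printed because its seed defines the sites searched for in the members, with the seed in capitals. It lies at chr11:86584120-86584141 on the minus strand (RefSeq, GRCm38.p6).
mmu-miR-21a-5p: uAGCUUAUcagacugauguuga
The seed complement ATAAGCT was found on the sense strand of the longest annotated 3′ UTR (GENCODE M21, GRCm38) in 3 of 39 members, or 7.69%, against 7.75% of 13341 tested genes. The longer form ATAAGCTA, which overlaps it, was found in 0 members and in 2.28% of the tested genes, and Ero1l held only the overlapping letters TAAGCTA. The 3 matches are shown with the matching letters in capitals, all on the plus strand. They lie at chr15:98132331-98132360 in Pfkm, at chr11:120958973-120959002 in Slc16a3, where the window runs just past the RefSeq end of the gene, and at chr10:59372098-59372127 in P4ha1.
Pfkm: ttttcctaaaaATAAGCTttatttatttct
Slc16a3: tgaagtatagcATAAGCTgttcactgtgtg
P4ha1: gctcccttgggATAAGCTtcggggaatttg
These matches are descriptions of the sequence, and the 3 genes did not move one way. Slc16a3 was higher and Pfkm lower in miR-21-KD tumours, and P4ha1 did not pass the test.

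The core letters of the HIF element were searched on both strands of the RefSeq promoters (GRCm38.p6), taken from 250 bases before to 50 bases after each gene start. Of the 39 members 35 had such a promoter, and 31 of these (88.6%) held ACGTG or GCGTG, against 65.7% of 11032 tested genes. The members had 1.37 promoters per gene and the tested genes 1.27. In 6 of the 35 members (17.1%) and 11.5% of the tested genes a match overlapped CACGTG, an element that other factors bind. The windows below are from the 8 members that passed the test and had a promoter in the table, on the strand of the gene, with the core letters or their reverse complement in capitals. Epas1 was not among the promoters. The windows lie at chr6:82774489-82774518 (minus strand) for Hk2, chr15:98092593-98092622 (plus) for Pfkm, chr11:78323072-78323101 (plus) for Aldoc and chr2:11502041-11502070 (minus) for Pfkfb3. Those of Pfkfb4, Slc16a1, Slc16a3 and Adm lie on the plus strand, at chr9:108991773-108991802, chr3:104638672-104638701, chr11:120949041-120949070 and chr7:110627591-110627620.
Hk2: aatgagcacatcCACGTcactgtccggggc
Pfkm: atccagaaagatCACGTtagggtatacgaa
Aldoc: ggaggtatctgtCACGCccccagggagtca
Pfkfb3: ttaaaaggccgggcagtGCGTGtggcatcc
Pfkfb4: ttgacggatgggGCGTGcttagtccaaaag
Slc16a1: tggcgagctgcgACGTGactggtcggtcgt
Slc16a3: cgtgcgcgggggACGTGccgcgcgacggat
Adm: ggcaaatctgacCACGCccaccgtccgccc
Hk2, Pfkfb3, Pfkfb4, Slc16a3 and Adm were higher and Pfkm, Aldoc and Slc16a1 lower in miR-21-KD tumours, and since all 8 hold the letters, their presence cannot be compared with the direction.

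Between 12134849 and 13592695 reads were counted on genes per tumour. Values are given as CPM, counts per 1000000 after scaling with the TMM factors of edgeR, and 3 counts in a tumour are 0.221 to 0.245 CPM. Groups were compared with the quasi-likelihood test of edgeR, with p-values adjusted by Benjamini-Hochberg over 14382 genes and a threshold of 0.05. Fold changes are miR-21-KD over VC on the log2 scale, with standard errors (SE), and values after ± are SDs over the 4 tumours of a group. The median over all of these genes was -0.01.

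Of the 39 members 9 passed the test, or 23.1%, against a background of 39.1% of all tested genes. Hk2, Pfkfb3, Pfkfb4, Slc16a3, Epas1 and Adm were higher in miR-21-KD tumours, 6 members against 19.6% of all tested genes in that direction. Pfkm, Aldoc and Slc16a1 were lower, 3 members against 19.5% of all tested genes. The other 30 members did not pass. The median log2 fold change of the 39 was -0.01, with 19 above 0 and 20 below, and the values ran from -1.34 for Slc16a1 to 1.33 for Epas1. For 5 members every miR-21-KD tumour was above every VC tumour (background 16.3%) and for 4 every one was below (background 18.9%). In whole tumours, fewer cells of a type and less RNA per cell cannot be told apart.

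The 9 members that passed lie on different chromosomes for the most part (RefSeq, GRCm38.p6). Slc16a3 (chr11:120948484-120959000) and Aldoc (chr11:78323073-78327781) share chromosome 11. The others are Epas1 (chr17:86753864-86833410), Slc16a1 (chr3:104638664-104658462), Pfkfb3 (chr2:11471430-11554071), Pfkfb4 (chr9:108988272-109032236), Pfkm (chr15:98092589-98132447), Hk2 (chr6:82725025-82774454) and Adm (chr7:110627657-110629820).

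**Figure D1:**
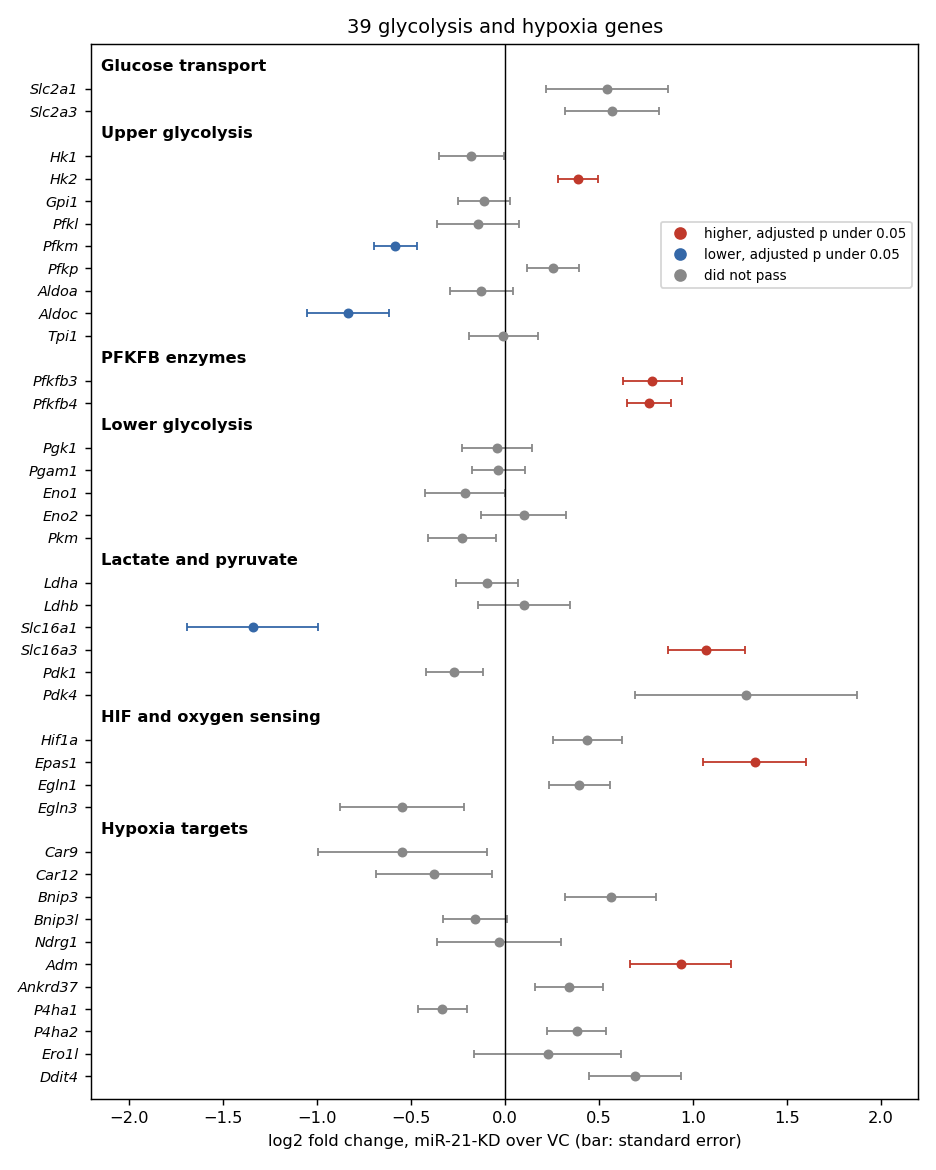
Log2 fold change, miR-21-KD over VC, of the 39 members in 7 role groups, with standard errors as bars (n = 4 tumours per group). Red and blue points passed the test as higher and lower, and grey points did not pass. The 5 enzymes of lower glycolysis sit between -0.23 and 0.10, while Slc16a1 at -1.34 and Slc16a3 at 1.07 lie on opposite sides of 0.

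Pfkfb3 and Pfkfb4, members of the enzyme family that sets the level of an allosteric activator of phosphofructokinase, both rose. Pfkfb3, which mainly makes the activator, measured 150, 88.9, 103 and 121 CPM in VC tumours 1 to 4 and 220, 189, 201 and 187 CPM in miR-21-KD tumours 1 to 4. Pfkfb4, which both makes and removes it, measured 33.9, 29.8, 32.3 and 33.9 CPM in VC tumours and 59.8, 43.7, 57.5 and 60.0 CPM in miR-21-KD tumours. For both genes every miR-21-KD tumour lay above every VC tumour, and miR-21-KD tumour 2 was the lowest of its group for Pfkfb4. The log2 fold change was 0.78 (SE 0.16, adjusted p = 0.00906, edgeR) for Pfkfb3 and 0.77 (SE 0.12, adjusted p = 0.00571, edgeR) for Pfkfb4. Both stayed past the threshold in all 15 alternative settings, each left-out tumour included.

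Glucose transport is the entry step. Slc2a1, the widely expressed glucose transporter, measured 387, 184, 309 and 175 CPM in VC tumours and 237, 388, 567 and 347 CPM in miR-21-KD tumours, so the groups overlapped. Slc2a3, a transporter with high affinity for glucose, averaged 33.8 ± 12.9 CPM in VC tumours and 50.3 ± 7.7 CPM in miR-21-KD tumours. Neither passed the test (adjusted p = 0.205 and 0.0955, edgeR). VC tumour 1 was the highest of its group for both transporters, and without it Slc2a3 passed (log2 fold change 0.84, adjusted p = 0.0162, edgeR).

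Upper glycolysis takes glucose to triose phosphates. Of its 9 members 1 rose (11.1%, against 19.6% of all tested genes), 2 fell (22.2%, against 19.5%) and 6 did not pass. The median log2 fold change was -0.12. Hk2, the inducible hexokinase that traps glucose in the cell, measured 123, 111, 111 and 132 CPM in VC tumours and 139, 153, 183 and 150 CPM in miR-21-KD tumours. The groups did not overlap, although the highest VC and the lowest miR-21-KD tumour were close. The log2 fold change of Hk2 was 0.39 (SE 0.11, adjusted p = 0.0218, edgeR). The call on Hk2 was lost without VC tumour 2, without VC tumour 3 or without miR-21-KD tumour 3, with an adjusted p of at most 0.0711. Hk1, the constitutive hexokinase, averaged 250 ± 19.3 CPM in VC tumours and 221 ± 54.8 CPM in miR-21-KD tumours and did not pass (adjusted p = 0.431, edgeR).

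Phosphofructokinase, the committed step, is built from Pfkl, Pfkm and Pfkp subunits. Pfkm, the muscle form, measured 45.9, 60.0, 50.8 and 46.2 CPM in VC tumours and 29.7, 35.3, 35.1 and 35.5 CPM in miR-21-KD tumours. Every miR-21-KD tumour lay below every VC tumour, and miR-21-KD tumour 1 was lowest. Pfkm fell by 0.58 on the log2 scale (SE 0.11, adjusted p = 0.00823, edgeR), a call that held in all 15 alternatives. Its exons overlap the antisense gene Senp1 and the gene Gm26513, and whether counting used strand is not given in the sources used here. The more abundant liver and platelet forms did not pass, with 421 ± 35 CPM in VC tumours and 381 ± 116 CPM in miR-21-KD tumours for Pfkl, and 257 ± 38 and 307 ± 40.1 CPM for Pfkp. Per kilobase of exon, VC tumours had 63.1 CPM of Pfkl, 19.2 of Pfkp and 15.2 of Pfkm, so the subunit that fell was the least abundant of the 3.

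Aldolase splits the hexose bisphosphate. Aldoc, the form best known from brain and a frequent hypoxia target, measured 91.3, 95.9, 107 and 77.6 CPM in VC tumours and 30.1, 61.1, 62.2 and 54.9 CPM in miR-21-KD tumours. All miR-21-KD tumours were below all VC tumours, with miR-21-KD tumour 1 far below the others. Aldoc fell by 0.84 on the log2 scale (SE 0.22, adjusted p = 0.0190, edgeR), and the call was lost without VC tumour 3 (adjusted p = 0.0556). Aldoa, at 545 CPM per kilobase of exon in VC tumours against 28.5 for Aldoc, measured 2034, 1859, 2353 and 1846 CPM in VC tumours and 1344, 2048, 2179 and 1853 CPM in miR-21-KD tumours. The groups overlapped and Aldoa did not pass (log2 fold change -0.12, SE 0.17, adjusted p = 0.581, edgeR). Gpi1 and Tpi1, the isomerases on either side of this step, had adjusted p-values of 0.543 and 0.978.

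**Figure D2:**
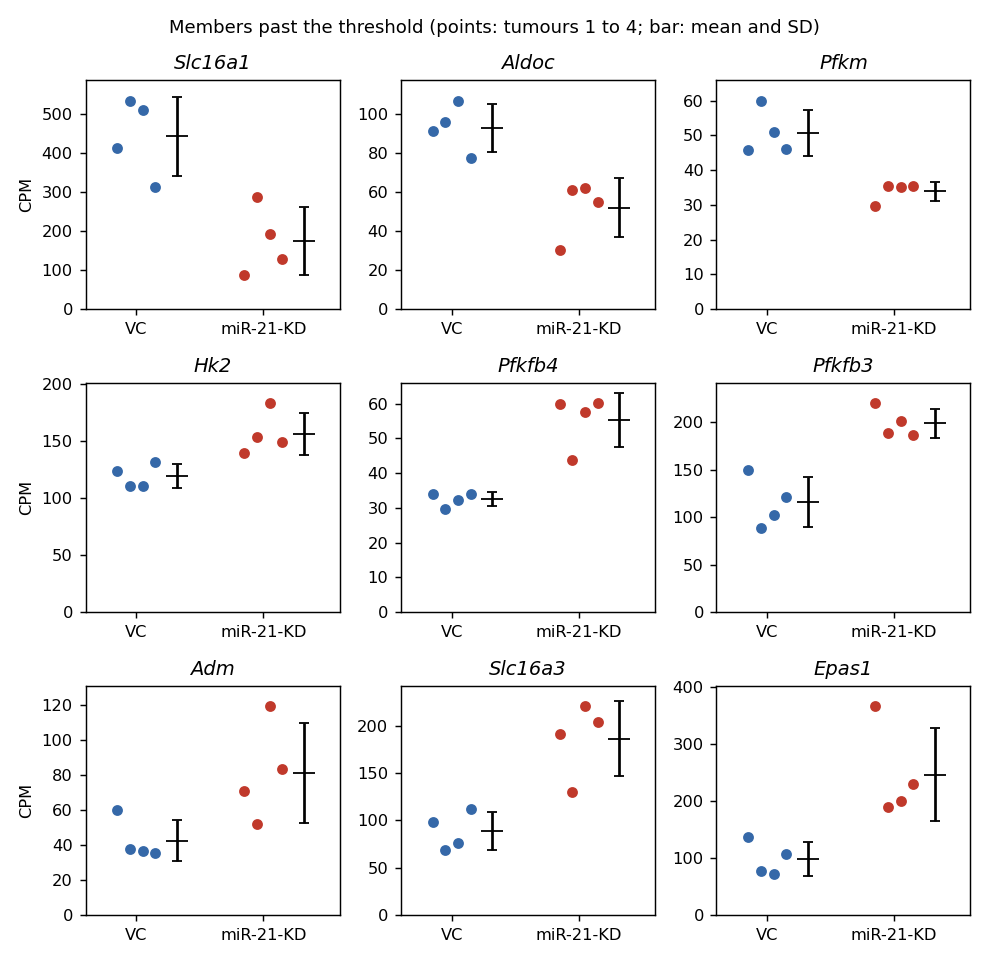
CPM in each tumour (points, tumours 1 to 4 from left to right) for the 9 members past the threshold, with group means and SDs as black bars and axes from 0. The groups are apart in 8 panels, and in that of Adm the highest VC tumour (60.2 CPM) lies above the lowest miR-21-KD tumour (51.8 CPM).

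Lower glycolysis takes the triose phosphates to pyruvate, and none of its 5 members passed the quasi-likelihood test of edgeR, whose smallest adjusted p among them was 0.333, with 0 of 5 at an unadjusted p under 0.05. They did not pass with DESeq2 or limma-voom either, and the median log2 fold change was -0.04. Pkm, the pyruvate kinase, Ldha and Aldoa had similar levels per kilobase of exon. In VC tumours these were 581 ± 62.9, 552 ± 45.8 and 545 ± 63.7 CPM, and in miR-21-KD tumours 495 ± 110, 518 ± 106 and 500.2 ± 98.8 CPM. The order of these genes lies within the SDs and depends on the exon length, taken over all annotated transcripts of a gene. Pkm measured 2897, 2764, 3342 and 2612 CPM in VC tumours and 1746, 2943, 2856 and 2364 CPM in miR-21-KD tumours. The groups overlapped, with miR-21-KD tumour 1 lowest of all 8 (log2 fold change -0.23, SE 0.18, adjusted p = 0.333, edgeR). Pgk1 averaged 107 ± 14.9 and 104 ± 25.8 CPM, Pgam1 51.3 ± 4.46 and 50.2 ± 9.22 CPM, Eno1 537 ± 69.6 and 464 ± 139 CPM and Eno2 100 ± 29.3 and 108 ± 22.8 CPM in VC and miR-21-KD tumours. Levels of these genes other than Eno2 are uncertain because they have near-identical copies. Of the 50-base stretches in the transcripts of Eno1 72.2% also occur in other genes, and the share was 68.0% for Pgk1, 41.5% for Pgam1, 34.4% for Pkm and 0.3% for Eno2. In all, 13 members had a share over 10%, and besides these and Bnip3 they were Ldhb (27.0%), Gpi1 (25.3%), Bnip3l (23.4%), Pfkp (17.1%), Ldha (16.6%), Ndrg1 (14.6%), Aldoa (13.5%) and Ankrd37 (11.4%). The 9 members that passed the test had shares of at most 0.6%.

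Lactate handling held the largest contrast between related members. Slc16a1, the monocarboxylate transporter MCT1, measured 414, 535, 510 and 313 CPM in VC tumours and 87.9, 289, 194 and 129 CPM in miR-21-KD tumours. Slc16a3, the exporter MCT4 of glycolytic cells, measured 98.2, 68.5, 76.1 and 112 CPM in VC tumours and 191, 130, 221 and 204 CPM in miR-21-KD tumours. The groups were apart for both genes and in opposite directions. Slc16a1 fell by 1.34 on the log2 scale (SE 0.35, adjusted p = 0.0188, edgeR) and Slc16a3 rose by 1.07 (SE 0.20, adjusted p = 0.00807, edgeR). Slc16a3 passed in all 15 alternatives, whereas the call on Slc16a1 was lost without VC tumour 2, VC tumour 3 or miR-21-KD tumour 4, with an adjusted p of at most 0.0563. The ratio of Slc16a3 to Slc16a1 within a tumour, which does not depend on how libraries are scaled, was -2.07, -2.96, -2.74 and -1.49 on the log2 scale in VC tumours and 1.12, -1.15, 0.19 and 0.66 in miR-21-KD tumours. The ratio differed by 2.52 between the group means, and no tumour of one group lay within the range of the other.

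The dehydrogenases and kinases around pyruvate did not pass. Ldha, which turns pyruvate into lactate, measured 1847, 1699, 2034 and 1731 CPM in VC tumours and 1234, 1950, 1999 and 1673 CPM in miR-21-KD tumours. The groups overlapped, and miR-21-KD tumour 1 was again the lowest of the 8 (log2 fold change -0.09, SE 0.17, adjusted p = 0.676, edgeR). Ldhb, the subunit of oxidative tissues, stayed at 4.89 to 9.63 CPM in every tumour. Pdk1, a HIF target that shuts off pyruvate oxidation, averaged 91.1 ± 8.31 CPM in VC tumours and 75.6 ± 16 CPM in miR-21-KD tumours (adjusted p = 0.183, edgeR). Pdk4, the pyruvate dehydrogenase kinase of fasting and fat oxidation, measured 5.83, 1.20, 0.867 and 2.70 CPM in VC tumours and 9.21, 2.91, 6.65 and 7.12 CPM in miR-21-KD tumours. Pdk4 was low in both groups and the ranges overlapped through VC tumour 1. It did not pass (log2 fold change 1.28, SE 0.59, adjusted p = 0.112, edgeR), but passed with the tumours paired by replicate number (log2 fold change 1.48, adjusted p = 0.0235) and without VC tumour 1.

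Of the 4 genes of oxygen sensing, Epas1 rose and the others did not pass. Epas1, the HIF alpha subunit prominent in endothelium and macrophages among other cells, measured 137, 76.9, 71.1 and 107 CPM in VC tumours and 366, 189, 199 and 229 CPM in miR-21-KD tumours. Every miR-21-KD tumour was above every VC tumour, and tumour 1 was the highest of both groups. The log2 fold change was 1.33 (SE 0.27, adjusted p = 0.00988, edgeR), past the threshold in all 15 alternatives. Hif1a, the subunit of the acute response, measured 612, 406, 449 and 338 CPM in VC tumours and 608, 686, 635 and 514 CPM in miR-21-KD tumours. VC tumour 1 overlapped the other group. Hif1a did not pass (log2 fold change 0.44, SE 0.18, adjusted p = 0.0858, edgeR), but passed with the replicate pairing (adjusted p = 0.0419), with DESeq2 and without VC tumour 1. HIF alpha subunits are controlled largely through protein stability, which read counts do not measure.

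The prolyl hydroxylases Egln1 and Egln3, themselves HIF targets, had fold changes of opposite sign. Egln1 averaged 169 ± 29.9 CPM in VC tumours and 222 ± 38.8 CPM in miR-21-KD tumours (log2 fold change 0.40, adjusted p = 0.0813, edgeR). Egln3 measured 809, 780, 806 and 419 CPM in VC tumours and 239, 598, 659 and 430 CPM in miR-21-KD tumours (log2 fold change -0.55, adjusted p = 0.207, edgeR). VC tumour 4 stood below the other VC tumours for Egln3 and inside the range of the miR-21-KD tumours. Egln1 passed with DESeq2 and without miR-21-KD tumour 1, and Egln3 in none of the 15 alternatives.

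Of the 11 hypoxia targets 1 rose (9.09%, against 19.6% of all tested genes) and 10 did not pass, with a median log2 fold change of 0.23 and 6 values above 0. Adm, the secreted vasodilator peptide adrenomedullin, measured 60.2, 37.8, 36.3 and 35.6 CPM in VC tumours and 70.7, 51.8, 119 and 83.4 CPM in miR-21-KD tumours. VC tumour 1 lay within the range of the miR-21-KD tumours, and miR-21-KD tumour 3 was highest. Adm rose by 0.94 on the log2 scale (SE 0.27, adjusted p = 0.0264, edgeR). The call on Adm was lost without VC tumour 2, 3 or 4 and without miR-21-KD tumour 3 or 4, with an adjusted p of at most 0.0752.

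Ddit4, a stress-induced inhibitor of mTORC1, measured 115, 79.2, 96.8 and 68.9 CPM in VC tumours and 95.3, 148, 209 and 131 CPM in miR-21-KD tumours. VC tumours 1 and 3 lay above miR-21-KD tumour 1, and Ddit4 passed without VC tumour 1 and without miR-21-KD tumour 1. With all tumours it had a log2 fold change of 0.69 (SE 0.25) and the smallest adjusted p of the members that did not pass, 0.0512 (edgeR), and it also passed with DESeq2, with upper-quartile scaling and with a filter of 10 counts in every tumour.

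Car9 and Car12, the membrane carbonic anhydrases that handle acid outside the cell, had values below 0 that did not pass. Car9, often used as a marker of hypoxic areas, measured 200, 180, 286 and 145 CPM in VC tumours and 41.8, 237, 166 and 111 CPM in miR-21-KD tumours. The overlap was wide and the low value of miR-21-KD tumour 1 stood out (log2 fold change -0.54, SE 0.45, adjusted p = 0.357, edgeR). Car12 averaged 116 ± 32.2 CPM in VC tumours and 89.5 ± 34 CPM in miR-21-KD tumours (adjusted p = 0.354, edgeR).

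Ndrg1, a cytosolic protein strongly induced by hypoxia in cultured cells, had the highest level of the 11 targets per kilobase of exon, with 275 CPM in VC tumours. Ndrg1 measured 2653, 1288, 2178 and 1141 CPM in VC tumours and 1144, 2170, 2374 and 1414 CPM in miR-21-KD tumours. Each group held both high and low tumours, and the group means of 1815 and 1776 CPM were nearly the same (log2 fold change -0.03, SE 0.33, adjusted p = 0.948, edgeR). With the replicate pairing the sign of this small value changed (0.0060). Ero1l, an oxidase of protein folding, had the same kind of spread, with 768, 303, 587 and 256 CPM in VC tumours and 343, 659, 791 and 446 CPM in miR-21-KD tumours (adjusted p = 0.664, edgeR).

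The mitophagy receptors Bnip3 and Bnip3l and the collagen prolyl hydroxylases P4ha1 and P4ha2 each had fold changes of opposite sign, and none of the 4 passed. Bnip3 averaged 200 ± 57.8 CPM in VC tumours and 295 ± 77.2 CPM in miR-21-KD tumours (log2 fold change 0.56, adjusted p = 0.0920, edgeR), and passed only without VC tumour 1. Of its 50-base stretches 62.4% also occur in other genes. Bnip3l averaged 217 ± 38.2 and 194 ± 36.7 CPM (adjusted p = 0.479, edgeR). P4ha1 measured 477, 377, 423 and 379 CPM in VC tumours and 272, 366, 371 and 308 CPM in miR-21-KD tumours. All miR-21-KD tumours were below all VC tumours for P4ha1, by a narrow gap (log2 fold change -0.33, SE 0.13, adjusted p = 0.0737, edgeR), and it passed without miR-21-KD tumour 2. P4ha2 averaged 105 ± 22.5 and 137 ± 14 CPM (log2 fold change 0.38, adjusted p = 0.0787, edgeR), and passed with DESeq2 and without VC tumour 1. Ankrd37, a small HIF target of little known function, averaged 18.3 ± 1.34 and 23.3 ± 5.82 CPM (adjusted p = 0.153, edgeR) and passed without miR-21-KD tumour 1.

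Ratios between related members were computed within each tumour for 14 pairs, with no test. The groups did not overlap in 6 pairs (42.9%), with 3 ratios above and 3 below those of VC tumours, where 35.2% of all single genes tested did not overlap. Besides Slc16a3 to Slc16a1, the higher ratios were P4ha2 to P4ha1, with a log2 mean of -1.99 ± 0.19 in VC tumours and -1.25 ± 0.09 in those of the miR-21-KD group, and Pfkp to Pfkl, with -0.72 ± 0.20 and -0.26 ± 0.34. The lower ratios were Egln3 to Egln1 (2.03 ± 0.38 and 1.03 ± 0.42), Bnip3l to Bnip3 (0.15 ± 0.23 and -0.59 ± 0.16) and Aldoc to Aldoa (-4.44 ± 0.12 and -5.18 ± 0.19). In the pairs of Egln, Bnip3, P4ha and Pfkp to Pfkl genes neither gene passed the test alone. In the other 8 pairs the groups overlapped, and the difference in log2 ratio ran from -0.37 for Pfkm to Pfkl to 1.77 for Pdk4 to Pdk1, with 0.86 for Epas1 to Hif1a and 0.60 for Hk2 to Hk1.

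**Figure D3:**
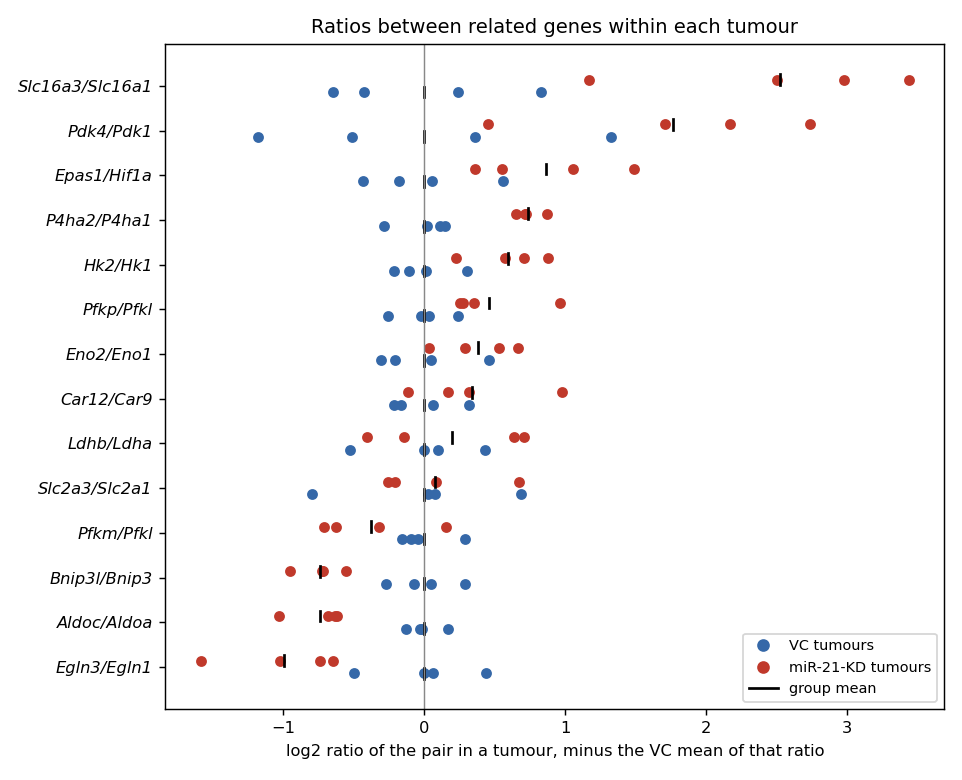
Log2 ratio of CPM between the 2 genes of each pair in every tumour, after subtraction of the VC mean of that ratio, for 14 pairs. Blue points are VC tumours, red points are miR-21-KD tumours and black ticks are group means. The Slc16a3 to Slc16a1 ratio is 2.52 higher in miR-21-KD tumours, and the Egln3 to Egln1 ratio differs by -0.995.

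The tumours of a group varied together over many members. Among the 4 miR-21-KD tumours, tumour 1 had the lowest value for 30 of 39 members and tumour 3 the highest for 23. Among the 4 VC tumours, tumour 1 had the highest value for 21 of 39 members and for 14 of the 15 genes of oxygen sensing and hypoxia targets. The mean log2 CPM of those 15 genes was 7.90, 7.31, 7.66 and 7.22 in VC tumours and 7.30, 7.88, 8.08 and 7.65 in miR-21-KD tumours, so that the groups overlapped, with miR-21-KD tumour 3 above and VC tumour 4 below all tumours of the other group. The mean over the 5 lower glycolysis genes was 7.99, 7.75, 8.16 and 7.77 in VC tumours and 7.36, 8.05, 8.11 and 7.74 in miR-21-KD tumours. Without VC tumour 1 the number of members that passed was 15, of which 12 were higher, and without miR-21-KD tumour 1 it was 12. These are 38.5% and 30.8% of the members against 35.5% and 26.5% of all genes tested in the same settings, so the share of members lay above that of all genes there and below it with all tumours. Without VC tumour 3 the number was 5 (12.8%, against 20.1% of all genes), of which 1 was lower.

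**Figure D4:**
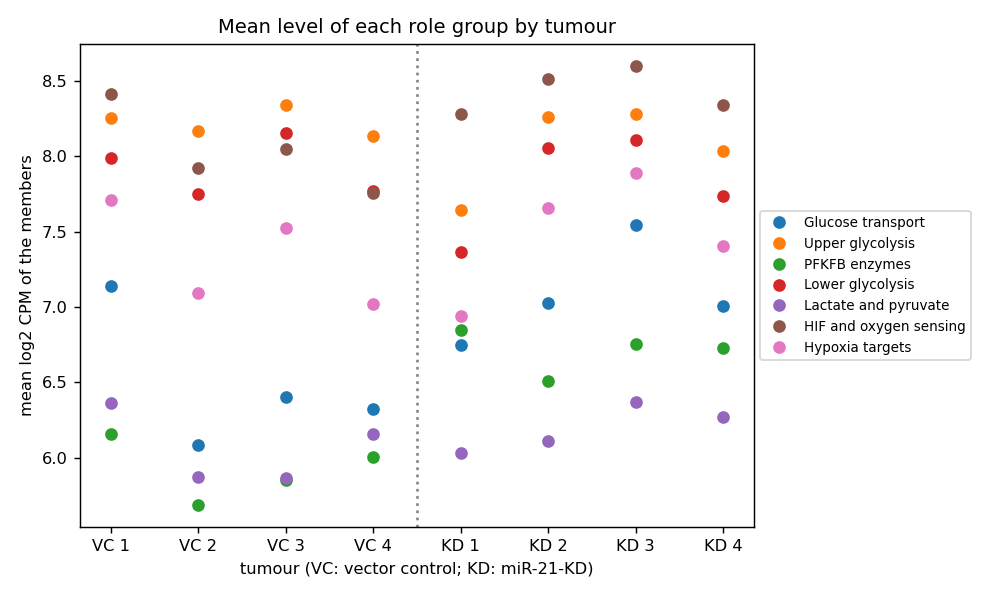
Mean log2 CPM over the members of each of the 7 role groups in every tumour, VC tumours on the left of the dotted line and miR-21-KD tumours on the right. The PFKFB enzymes are higher in each miR-21-KD tumour (6.51 to 6.84) than in each VC tumour (5.69 to 6.16), whereas the hypoxia targets span 7.02 to 7.71 in VC and 6.94 to 7.89 in miR-21-KD tumours.

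A wider list of 114 genes of the same pathways, none of them members, was examined in the same way, and 106 of these were tested. The list was chosen with earlier results of these data known, so its shares are a description and no independent test. Of the 106, 34 were higher (32.1%, against 19.6% of all tested genes) and 4 lower (3.77%, against 19.5%), with a median log2 fold change of 0.26. Of these 38 calls 17 were kept in every alternative that tested the gene. For Slc2a4 and Rora, counted among the 17, that was 14 alternatives, since the filter of 10 counts in every tumour removed them. The count of 34 higher genes dropped to 19 without VC tumour 2, 17 without VC tumour 3, 21 without miR-21-KD tumour 3 and 20 without miR-21-KD tumour 4, settings in which the share of all tested genes that were higher was 11.6%, 9.9%, 13.6% and 12.1%. The count of 4 lower genes was 1 without VC tumour 2, VC tumour 3 or miR-21-KD tumour 1, 2 without VC tumour 1 or miR-21-KD tumour 3, 7 without miR-21-KD tumour 2, and 7 with the replicate pairing.

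Among 40 further hypoxia targets 18 rose (45%, against 19.6% of all tested genes) and 2 fell (5%, against 19.5%). The median log2 fold change was 0.41, and 9 of the 20 calls were kept in every alternative that tested the gene. Stc2, a secreted glycoprotein, averaged 5.51 ± 2.36 CPM in VC tumours and 50.5 ± 26.4 CPM in miR-21-KD tumours (log2 fold change 3.19, adjusted p = 0.00571, edgeR). Trf, the iron carrier transferrin, averaged 435 ± 123 and 1335 ± 391 CPM (1.62, adjusted p = 0.00693, edgeR), and Loxl2, a collagen cross-linking oxidase, 82.7 ± 33 and 247 ± 70.5 CPM (1.58, adjusted p = 0.00827, edgeR). These 3 had no overlap between groups and were kept in every alternative. Stc1, a relative of Stc2, moved the other way, from 55.6 ± 6.04 to 20.6 ± 9.54 CPM (log2 fold change -1.43, adjusted p = 0.00933, edgeR), also in every alternative. Insig2, which restrains sterol synthesis, fell by 0.48 on the log2 scale (adjusted p = 0.0304, edgeR), with overlap and with the call lost without VC tumour 1, 2 or 3 or miR-21-KD tumour 1 or 4.

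Of 12 further glycolysis genes tested 4 rose (33.3%, against 19.6% of all tested genes) and 8 did not pass. Hk3, a hexokinase of myeloid cells, averaged 69.9 ± 23.4 CPM in VC tumours and 162 ± 18.7 CPM in miR-21-KD tumours (log2 fold change 1.21, adjusted p = 0.00751, edgeR). Slc2a4, the insulin-dependent glucose transporter of fat and muscle, averaged 1.91 ± 1.04 and 12.04 ± 7.75 CPM (2.64, adjusted p = 0.0115, edgeR), and Pfkfb2 26.8 ± 3.38 and 36.2 ± 2.55 CPM (0.43, adjusted p = 0.0192, edgeR). The groups were apart for all 3, and the call on Pfkfb2 was lost without VC tumour 3 or miR-21-KD tumour 4. Of 5 gluconeogenesis genes 3 rose (60%, against the same 19.6%), all with low levels in VC tumours. Pcx, pyruvate carboxylase, averaged 11.4 ± 4.14 and 44.1 ± 21.8 CPM (1.95, adjusted p = 0.00833, edgeR), and Pck1, which makes phosphoenolpyruvate, 5.66 ± 5.62 and 41.7 ± 18.5 CPM (2.87, adjusted p = 0.0110, edgeR). Fbp1 had a log2 fold change of 1.20 (adjusted p = 0.0340, edgeR), lost without 6 of the 8 tumours left out in turn and with limma-voom.

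Of 11 glycogen genes 4 rose (36.4%) and 7 did not pass, against a background of 19.6% of all tested genes higher and 19.5% lower. Pygl, the liver glycogen phosphorylase, averaged 49.6 ± 18.8 CPM in VC tumours and 137 ± 29.7 CPM in miR-21-KD tumours (log2 fold change 1.46, adjusted p = 0.00833, edgeR). The phosphatase targeting subunits Ppp1r3b and Ppp1r3c had log2 fold changes of 1.04 and 2.21 (adjusted p = 0.0138 and 0.0182, edgeR), the latter lost without VC tumour 3 or miR-21-KD tumour 4. In the pentose phosphate pathway 2 of 8 genes rose (25%). H6pd rose by 0.55 and Taldo1 by 0.50 on the log2 scale (adjusted p = 0.00916 and 0.0187, edgeR), the latter lost without VC tumour 2. Of 15 genes of pyruvate oxidation Pdp1, the phosphatase that switches pyruvate dehydrogenase on, rose by 0.47 (adjusted p = 0.0153, edgeR) and Pdhb, a subunit of that enzyme, fell by 0.30 (adjusted p = 0.0312, edgeR). That is 6.67% in each direction, less than the background. Of 15 HIF regulators Egln2 and Vhl rose by 0.32 and 0.27 (adjusted p = 0.0455 and 0.0498, edgeR) and Rbx1 fell by 0.26 (adjusted p = 0.0299, edgeR). These shares, 13.3% higher and 6.67% lower, are also less than the background. Pdp1 and H6pd kept their calls in every alternative, and Pdhb, Egln2, Vhl and Rbx1 lost theirs without 5 or more of the 8 tumours left out in turn. Vhl also lost its call with the replicate pairing (adjusted p = 0.0546, edgeR), with limma-voom, with library size alone and with no filter. Egln2 also lost its call with library size alone and with no filter. Pdhb and Rbx1 also lost theirs with upper-quartile scaling and with the filter of 10 counts in every tumour.

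Markers of the cell types in whole tumours differed between the groups as well, and the gene with the most CPM of each list is named. The background for the counts below was 19.6% of all tested genes higher and 19.5% lower. Adipocyte markers were higher in 7 of 7, with a summed level of 184 to 444 CPM in VC tumours and 596 to 1453 CPM in miR-21-KD tumours, led by Fabp4. Fibroblast markers were higher in 5 of 7 (3062 to 8041 and 10460 to 23375 CPM, led by Col3a1) and macrophage markers in 8 of 9 (3345 to 5214 and 6227 to 10639 CPM, led by Mrc1). General leukocyte markers were higher in 4 of 6 (1286 to 2238 and 2376 to 3228 CPM, led by Laptm5) and T cell markers in 4 of 6 (38.5 to 148 and 126 to 260.0 CPM, led by Lck). Neutrophil markers were higher in 1 of 8, endothelial markers in 1 of 7, and the 3 erythroid markers tested did not pass (smallest unadjusted p = 0.168, edgeR), with overlapping sums of 312 to 875 and 417 to 928 CPM (led by S100a9), 408 to 691 and 576 to 801 CPM (led by Pecam1), and 32.2 to 63.3 and 24.2 to 95.3 CPM (led by Hba-a2). The markers of fat, stroma, macrophages and leukocytes thus had sums that did not overlap. The sums of the other cell types did, although some of their single markers passed. Mammary epithelial markers, which check the labelled tissue, were present in every tumour at 1293 to 2231 and 1083 to 2020 CPM, led by Krt18, with 7 of 9 higher and 1, Krt18, lower. Krt8 and Krt18 made up most of these sums, with means of 808 and 1022 CPM in VC and 439 and 460 CPM in miR-21-KD tumours. The sums thus hide the rises of the less abundant markers, and the median log2 fold change of the 9 was 2.31. Skeletal muscle markers were near 0, with sums of 6.46 to 11.6 and 4.46 to 10.3 CPM, and Ckm averaged 0.0184 and 0.0802 CPM. Of the 3 muscle markers tested, Myh1 was lower (4.98 and 0.892 CPM) and Atp2a1 higher (1.09 and 2.57 CPM), both without overlap between groups (adjusted p = 0.0209 and 0.0259, edgeR). Proliferation genes were lower in 8 of 9, with sums of 1522 to 2103 CPM in VC tumours and 560 to 1521 CPM in miR-21-KD tumours, led by Top2a. MiR-21-KD tumour 1, the lowest of its group for 30 members, had the lowest proliferation and mammary epithelial sums of that group. Its fibroblast, macrophage, leukocyte, T cell, endothelial and skeletal muscle sums were the highest of that group. The part of these cell types in the values of Epas1, Slc16a3, Slc16a1, Hk3, Pck1, Slc2a4 and the other genes above was not tested.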

How the data were processed

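The authors deposited raw read counts per gene (Entrez identifiers, without normalization) for 8 tumours, and all columns were used. The processing notes of the submitters name Subread, featureCounts, edgeR, limma and the build mm10, and settings for strand and multiply mapped reads are not given in the sources used here. Of the 27179 identifiers 25275 matched a symbol (RefSeq, GRCm38.p6). Counts were analysed in R 4.3.3 with edgeR 4.0.16: filterByExpr (minimum count 10, total 15, which kept 99.852% of counts), TMM scaling, robust quasi-likelihood test, Benjamini-Hochberg adjustment, threshold 0.05, and prior count 2 for log2 CPM. P-values measure the spread between 4 tumours per group, which the study calls biological replicates. All tumours of a group came from the same pool of clones, so the p-values do not cover the spread between pools. A difference between the VC and miR-21-KD pools cannot be told apart from the sequestration of miR-21. No 2 tumours of a group were alike within sampling noise (chi-square per degree of freedom 13.4 to 77.1). Deviations from the group mean were correlated between tumours of the same number (0.272, 0.421, 0.175 and 0.376, mean 0.311). The mean of -0.105 for the 12 other combinations is no separate comparison, because centring within each group ties it to the former. The labels do not say what the replicate numbers stand for, and other matchings were not examined. A fit with the replicate pairing is given where it changes a call.

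The members and lists were chosen with earlier results of these data known. Values per tumour are given for members past the threshold and the 4 most abundant others (Pkm, Aldoa, Ldha and Ndrg1), and some further members were added after their values were seen. In each wider list at most 3 genes per direction with the smallest adjusted p are named, and in each marker list the most abundant gene. Alternatives were DESeq2 1.42.0, limma-voom (limma 3.58.1), upper-quartile scaling, library size alone, no filter, 10 counts in every tumour, the replicate pairing and each tumour left out. The limits of 3 counts cover counting error only.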

Additional observations from a re-analysis of the deposited data

Results flagged for a closer look

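For 6 of 78 combinations of member and group, 1 of the 4 tumours lay apart from the other 3, with a gap to its neighbour above the critical value of the Dixon test, which chance gives in about 1 in 20 groups. Among VC tumours, Gpi1 was lowest in tumour 2 (582.4 CPM), Pfkl highest in tumour 3 (473 CPM), Egln3 lowest in tumour 4 (419 CPM, with the next tumour at 780 CPM) and Adm highest in tumour 1 (60.2 CPM, with the next at 37.8 CPM). Among miR-21-KD tumours, Pfkm was lowest in tumour 1 (29.7 CPM) and Pfkfb4 lowest in tumour 2 (43.7 CPM). Leaving out the tumour that lay apart kept the calls on Pfkm, Pfkfb4 and Adm.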

How the results depend on the processing

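Of the 9 members past the threshold, 5 (Pfkm, Pfkfb3, Pfkfb4, Slc16a3 and Epas1) stayed past it in all 15 alternatives, and 4 lost their call only when a tumour was left out. Of the 30 others, 21 passed in none. Members higher numbered 10 with DESeq2, where the genes higher over all tested rose from 19.6% to 23.9%. Other pathway genes lower numbered 2 with upper-quartile scaling, 2 with the filter of 10 counts in every tumour and 7 with the replicate block. With single tumours left out, all genes higher ranged from 1449 (VC tumour 3) to 3290 and lower from 1487 (VC tumour 3) to 3550, members higher from 4 to 12 (VC tumour 1) and lower from 1 (VC tumour 3) to 4, and other pathway genes higher from 17 to 32 and lower from 1 to 7. The causes were not tested.

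With the replicate block 11 members passed (28.2%, against 45.1% of all genes), since Pdk4 and Hif1a were added, and it changed no other call on a member. Among the wider genes it ended the calls on Vhl, Phkb and Hmox1 (adjusted p = 0.0546, 0.0725 and 0.0907, edgeR) and added Ep300, Crebbp and Car8 as higher (0.0224, 0.0483 and 0.0418) and Eno3, Tkt and Eloc as lower (0.0331, 0.0362 and 0.0283). Log2 fold changes near 0 that had not passed changed sign for 9 members. Ndrg1 was 0.0060 with the block, 0.0065 with upper-quartile scaling and 0.016 with 10 counts in every tumour. In those scalings Pgam1 was 0.0074 and 0.016 and Tpi1 0.033 and 0.041, Pgk1 was 0.0067 with 10 counts, and Tpi1 0.00949 with DESeq2. With a tumour left out, the log2 fold change ranged from -0.28 to 0.043 for Pfkl, -0.21 to 0.0036 for Aldoa, -0.10 to 0.13 for Tpi1, -0.18 to 0.10 for Pgk1, -0.13 to 0.076 for Pgam1, -0.031 to 0.25 for Eno2, -0.18 to 0.037 for Ldha, -0.097 to 0.23 for Ldhb and -0.21 to 0.21 for Ndrg1.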
